A study of Mus musculus with 6 samples.

Results

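The genes described here are 36 mouse genes of the endoplasmic reticulum (ER): chaperones and their partners, disulfide enzymes, sensors and transcription factors of the unfolded protein response, parts of ER-associated degradation (ERAD) and subunits of the translocon. They were listed by name from that pathway, with earlier results of these data known. The array's annotation gave 34 of the 36 at least 1 probe set naming that gene alone, 73 probe sets of the 22626 tested, out of 12393 genes measured in all. Hspa13 was not analysed here. Sec61g was named only by a probe set that also names other genes, so it has no value.

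The study measured RNA on 6 Affymetrix mouse arrays, 3 from a cell line named PPP3R1 starved for 6 h and 3 from a control. The titles and the series' design call the control the same PPP3R1 line in normal medium, while the growth and treatment notes name wild-type mouse embryonic fibroblasts (MEFs), so by the second reading cell line and starvation could not be told apart. PPP3R1 is the symbol of the regulatory subunit of calcineurin, a phosphatase; the labels do not say how the line was made or from how many clones, and no genotype is given for either group. The nutrients missing from the starvation medium are not given. The titles call the replicates biological without saying whether they were separate cultures, so the p-values measure only the spread between these RNA samples, which may still be technical.

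Proteins made for secretion or for membranes enter the ER through the translocon, are folded there by chaperones of the HSP70, HSP90 and lectin families, and receive disulfide bonds from protein disulfide isomerases that the ERO1 oxidases recharge. Proteins that fail to fold are taken back to the cytosol through ERAD and destroyed by the proteasome. When unfolded proteins build up, the sensors IRE1, PERK and ATF6 start the unfolded protein response; IRE1 splices Xbp1 mRNA, ATF6 is cut to release a transcription factor, and both routes raise chaperone genes through promoter elements such as the ER stress response element (ERSE). Fibroblasts secrete much collagen and other matrix protein and so depend on this machinery.

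The array values were log2 signals normalised by RMA (robust multi-array average), so a change of 1 is a doubling on the array's scale. Array medians lay between 6.74 and 6.78, and the lowest correlation within a group, 0.998, lay above the highest between groups, 0.988. Of 11 fibroblast markers, 10 read above 5 on this scale on all 6 arrays, Thy1 being the exception. So did 3 of 6 leukocyte, 2 of 4 muscle, 2 of 4 neural and glial and 2 of 4 plasma cell and pancreatic markers, and none of 5 epithelial and 4 endothelial ones; the leukocyte marker Ptprc stood at 3.07 and 3.03 and Cd14 at 8.34 and 8.02. The average of the fibroblast markers was 11.39 to 11.42 on the control arrays and 11.31 to 11.32 on the starved arrays, over members that went both ways: 3 fell, Lum (-2.05) and Pdgfrb (-0.81) the most, and 4 rose, Col1a1 (0.57) and Prrx1 (0.51) the most. Of the other markers, Cd14 fell (-0.32) and Lyz2, Cdh1, Pecam1, Map2 and Tubb3 rose, Map2 the most (0.74); their part in the results was not tested. In such bulk RNA fewer cells of a type and less RNA per cell cannot be told apart. A gene was called changed at a Benjamini-Hochberg adjusted p under 0.05 in limma's moderated test over all 22626 probe sets, and a gene with several probe sets was represented by the brightest one. Values are group means ± SD over 3 arrays, changes are starved minus control ± SE, and levels of different genes were not compared, since each probe set has its own brightness.

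The ERSE is a promoter element that ties chaperone genes to the unfolded protein response: CCAAT, 9 bases of any kind, then CCACG, read on either strand. It was sought, as an exact match, in RefSeq promoters of the GRCm38.p6 build, from 250 bases before to 50 after each annotated start. Near matches were not counted, so a window without the element may still hold a close variant of it. Windows were held for 30 of the 36 genes. The element lay in the windows of 10 of these 30 genes (33.3%), against 37 of 27025 genes in the whole promoter table (0.137%). The genes were listed from the pathway that the element is known for, so the gap between these shares is a description only. Each copy is printed with 12 flanking bases, on the strand where it reads from CCAAT to CCACG, with those blocks in capitals.
Hspa5, chr2:34772013-34772055, plus strand: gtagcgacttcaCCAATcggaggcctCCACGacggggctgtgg
Hsp90b1, chr10:86705626-86705668, minus strand: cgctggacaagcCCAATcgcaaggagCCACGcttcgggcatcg
Hsp90b1, chr10:86705521-86705563, plus strand: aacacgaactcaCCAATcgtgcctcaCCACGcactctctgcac
Dnajc3, chr14:118937815-118937857, plus strand: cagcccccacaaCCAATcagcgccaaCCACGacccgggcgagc
Creld2, chr15:88819508-88819550, minus strand: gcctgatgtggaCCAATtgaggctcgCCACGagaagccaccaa
Calr, chr8:84847063-84847105, plus strand: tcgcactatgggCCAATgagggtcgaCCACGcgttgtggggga
Canx, chr11:50325788-50325830, minus strand: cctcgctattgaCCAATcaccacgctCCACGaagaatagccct
Pdia6, chr12:17266479-17266521, plus strand: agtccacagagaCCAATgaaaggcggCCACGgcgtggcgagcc
Ero1b, chr13:12565670-12565712, minus strand: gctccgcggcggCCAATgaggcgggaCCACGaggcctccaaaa
Syvn1, chr19:6046520-6046562, plus strand: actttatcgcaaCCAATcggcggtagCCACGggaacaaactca
Derl3, chr10:75893230-75893272, minus strand: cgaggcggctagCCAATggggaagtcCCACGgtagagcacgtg

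Hspa5, Dnajc3, Creld2, Calr and Pdia6 fell in starved cells, 5 of 10, none rose, and Hsp90b1, Canx, Ero1b, Syvn1 and Derl3 were not called. Of all 12393 genes, 20.1% were called lower and 20.8% higher. The median change of the 10 genes with the element was -0.15. Over the 19 measured genes with a window but no such element it was -0.11, and 7 of these fell and 2 rose. Outside the 36 genes, 27 others carried the element in a window and 8 of these were measured: none fell, 1 rose (Pan2, by 0.85), and their median was 0.09. The closest copies to a start were those of Syvn1, 26 to 44 bases before it and in a gene whose change was -0.01, and of Hspa5, 47 to 65 bases before it. Among the 30 genes with a window, Hsp90b1 was the only one with 2 exact copies, and its change was 0.07. The position and presence of the element are descriptions of these letters and not of binding.

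The block CCACG was also sought by itself. It was in the windows of 26 of the 30 genes (86.7%) against 35.5% of all genes with a window. These counts include copies that lie inside an ERSE. The core of the unfolded protein response element, ACGTGG, whose complement contains CCACG, was in 10 of the 30 genes (33.3%) against 9.40% of all genes with a window. These were Dnajb9, Dnajc3, Pdia5, Pdia6, P4hb, Herpud1, Edem3, Derl3, Ssr1 and Ssr3. In starved cells 5 of them fell, Pdia5 rose and 4 were not called. Of all 12393 genes, 20.1% were called lower and 20.8% higher. The 250 bases before the start are shown for Hspa5, which has the full ERSE, and for Sdf2l1, which fell furthest of the 34 genes by their brightest probe sets and has the blocks but not the ERSE; capitals mark every CCAAT and CCACG in either orientation.
Hspa5, chr2:34771840-34772089, plus strand: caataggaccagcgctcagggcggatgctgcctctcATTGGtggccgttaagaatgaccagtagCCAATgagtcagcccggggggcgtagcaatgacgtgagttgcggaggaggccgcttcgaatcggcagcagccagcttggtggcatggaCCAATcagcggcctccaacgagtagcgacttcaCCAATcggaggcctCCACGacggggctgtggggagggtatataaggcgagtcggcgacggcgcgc
Sdf2l1, chr16:17132384-17132633, minus strand: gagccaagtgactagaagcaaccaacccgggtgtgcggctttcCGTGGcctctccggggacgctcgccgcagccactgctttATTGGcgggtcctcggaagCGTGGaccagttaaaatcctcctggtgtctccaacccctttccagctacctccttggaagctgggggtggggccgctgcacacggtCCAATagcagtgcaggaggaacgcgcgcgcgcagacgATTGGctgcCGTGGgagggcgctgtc

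In the window of Hspa5 there were 4 CCAAT blocks and 1 CCACG, and the last CCAAT stood 9 bases before the CCACG. In that of Sdf2l1 there were 3 of each, none at that distance.

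**Figure D1:**
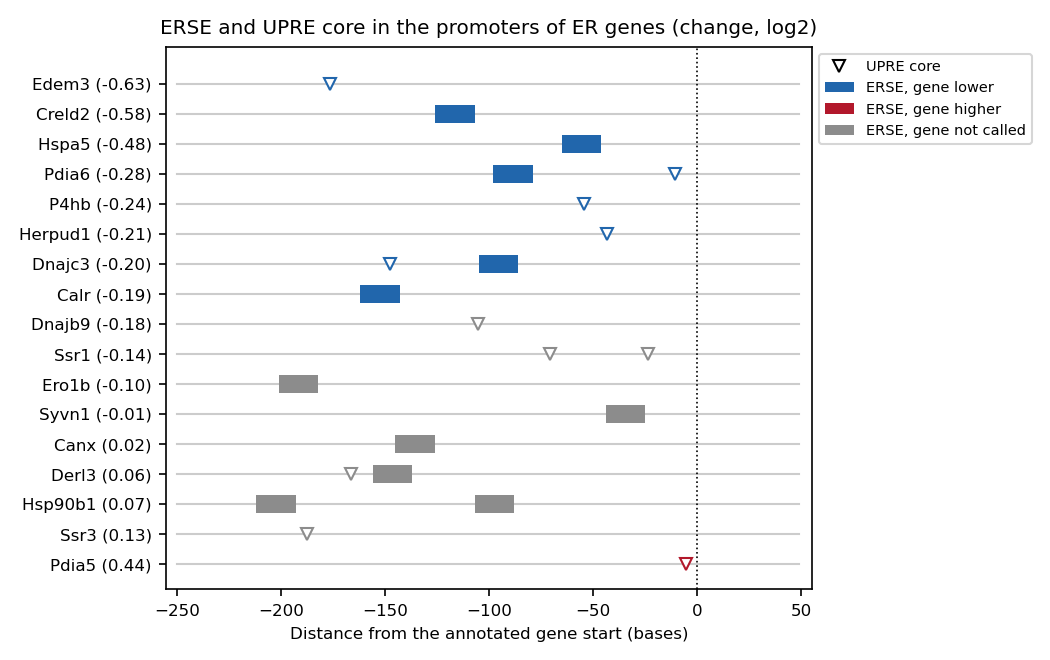
Positions of the ERSE (bars) and of the UPRE core (triangles) from 250 bases before to 50 after the annotated start, for the 17 genes with either; the horizontal axis is the distance from the start in bases, colours give the call and the number beside each gene is its log2 change. Lower and uncalled genes both carry the elements, and the upward-called Pdia5 has a UPRE core next to its start.

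Across the 34 measured genes, 15 were lower and 2 were higher in starved cells, and 17 were not called. The 15 make up 44.1% of the genes, where 20.1% of all 12393 genes were called lower. The 2 make up 5.88%, where 20.8% of all genes were called higher. By the brightest probe set, 0 of the 34 genes had a mean level under 5, against 3611 of the 12393. The shares over all genes, here and beside the roles and motifs, were not matched for level. The median change was -0.13, against -0.01 over all genes, and 22 of the 34 changes lay below 0. By the brightest probe set the changes ran from -1.11 to 0.44; dimmer probe sets of Ero1a fell further, to -1.57. In all 17 called genes the 3 starved values lay wholly on one side of the 3 control values, as they did in 2480 of the 2485 genes called lower and 2564 of the 2574 called higher over the whole array. Taken relative to each gene's own mean, the average of the 34 genes was 0.10, 0.08 and 0.08 on the control arrays and -0.07, -0.10 and -0.08 on the starved arrays, so no single array set it. The count of lower genes was 9 when starved replicate 2 was left out, 9 to 13 over the 6 fits that left out 1 array, 7 at an adjusted p of 0.01 and 5 for a change of at least 0.5.

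**Figure D2:**
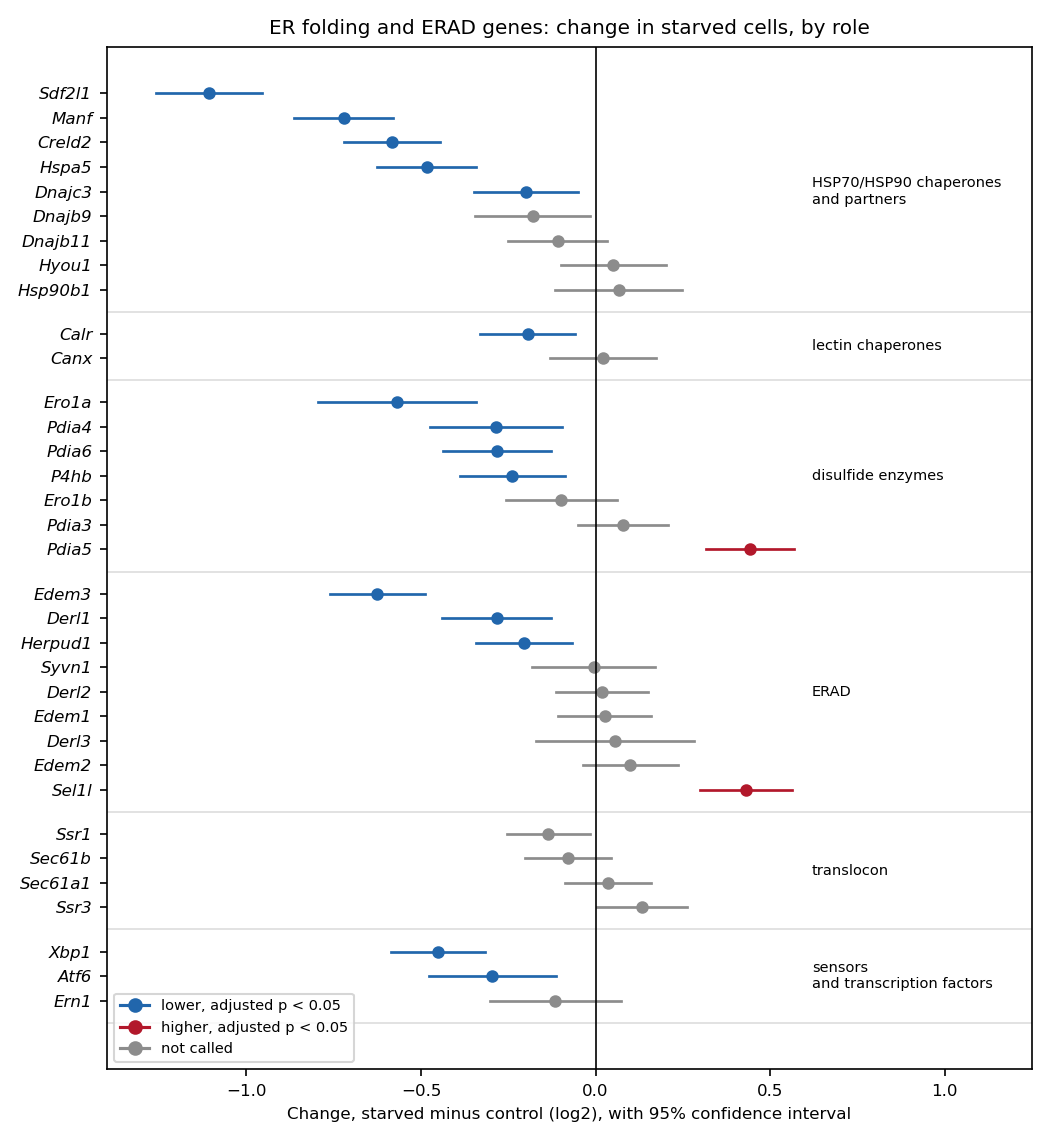
Change of each of the 34 genes (horizontal axis, log2 of starved over control; points, with bars for the 95% confidence interval), ordered within its role. Blue genes fell, red genes rose and grey genes did not pass; Sdf2l1 lies furthest to the left at -1.11 and Pdia5 furthest to the right at 0.44.

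Of the 9 HSP70 and HSP90 chaperones and their partners, 5 fell and none rose, where 20.1% of all genes fell and 20.8% rose. Their median change was -0.20. By the brightest probe set, the largest falls were in Sdf2l1, Manf, Creld2 and Hspa5, the gene of BiP. Sdf2l1, a companion of ER J-domain proteins, read 8.45, 8.46 and 8.63 on the control arrays and 7.39, 7.41 and 7.41 on the starved arrays. No starved value came within 1 log2 unit of the control values. Its mean went from 8.51 ± 0.10 to 7.40 ± 0.01, a change of -1.11 ± 0.07 or 2.15-fold lower (limma adjusted p = 1.28e-05).

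Manf, an ER-resident and secreted factor that binds BiP, read 10.96, 10.90 and 10.96 in control cells and 10.26, 10.13 and 10.27 in starved cells. The groups were far apart relative to the spread inside either, and the change was -0.72 ± 0.06 (limma adjusted p = 6.75e-05), 1.65-fold lower. Creld2, an ER protein with disulfide isomerase activity, read 9.22, 9.17 and 9.27 in control and 8.70, 8.59 and 8.63 in starved cells. It too had no overlap between groups, with a change of -0.58 ± 0.06, 1.50-fold lower (limma adjusted p = 0.000161).

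Hspa5 encodes BiP, the main HSP70 chaperone of the ER and the usual marker of the unfolded protein response. It read 12.07, 12.15 and 12.14 in control and 11.61, 11.58 and 11.72 in starved cells. All 3 starved arrays lay below all 3 control arrays. The mean went from 12.12 ± 0.04 to 11.64 ± 0.07, a change of -0.48 ± 0.06 or 1.40-fold lower (limma adjusted p = 0.000489), and the gene's second probe set gave -0.61 (0.000491).

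Dnajc3, a J-domain partner of BiP, was also called lower, by the least in its brightest probe set. That one changed by -0.20 ± 0.06 (limma adjusted p = 0.0410), from 9.44, 9.38 and 9.43 to 9.11, 9.26 and 9.28. Its other 4 probe sets were called lower too, at -0.85, -0.76, -0.56 and -0.43, so the size of the fall depended on the probe set. The mean over all 5 changed by -0.56 (adjusted p = 6.71e-05), while the call of the brightest one was lost without any 1 of the 3 control arrays (0.0652 to 0.109), without starved replicate 1 (0.115) and without starved replicate 2 (0.0629).

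The remaining 4 chaperones of this family were not called. Hsp90b1, the HSP90 of the ER, read 12.51, 12.57 and 12.44 in control and 12.72, 12.46 and 12.54 in starved cells. The groups overlapped, and the 95% interval of its change, -0.12 to 0.25, does not reach a fall as large as that of Hspa5. Hyou1, which exchanges nucleotide on BiP, gave 0.05 with an interval of -0.10 to 0.20. Dnajb11, a J-domain protein, gave -0.11 with an interval of -0.25 to 0.03. Dnajb9, another J-domain partner of BiP, had separate groups, 9.32, 9.19 and 9.11 against 9.08, 9.03 and 8.96, but its change of -0.18 ± 0.07 missed the threshold (limma adjusted p = 0.0791). It passed under 3 alternatives: without dim probe sets (0.0426), with trended and robust moderation (0.0176) and without control replicate 3 (0.0430).

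**Figure D3:**
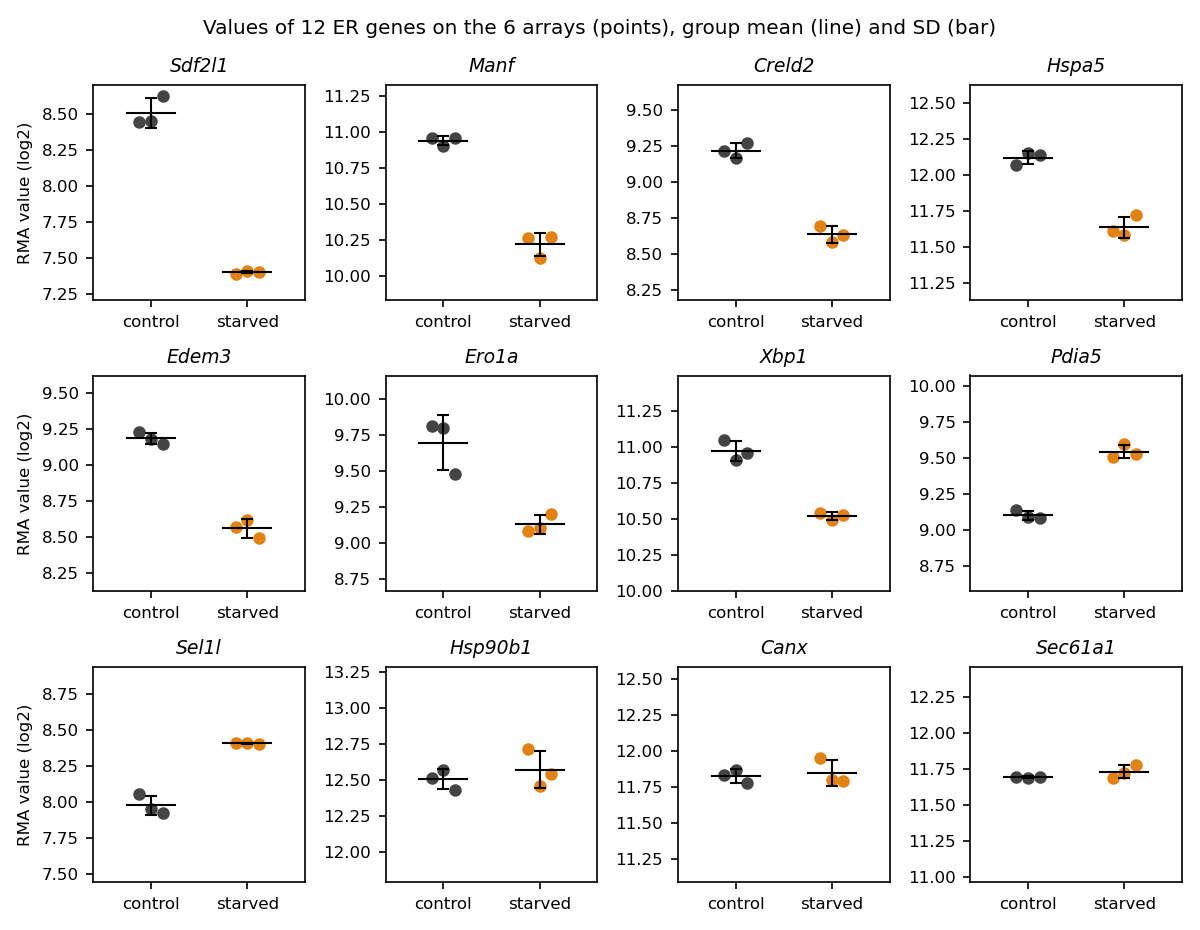
Values of 12 of the genes on each array (points; vertical axis in log2 RMA units, each panel spanning the same distance), with the group mean as a line and the SD as a bar. Starved points lie apart and below in Sdf2l1, Manf, Creld2, Hspa5, Edem3, Ero1a and Xbp1, apart and above in Pdia5 and Sel1l, and overlap the controls in Hsp90b1, Canx and Sec61a1.

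The lectin chaperones hold newly made glycoproteins in the ER until they fold. Calr, calreticulin, which is soluble, read 12.24, 12.16 and 12.25 in control and 12.04, 11.96 and 12.06 in starved cells. The groups did not overlap, but the change was small, -0.19 ± 0.06 or 1.14-fold lower (limma adjusted p = 0.0303). Its other 2 probe sets gave larger falls, -0.35 (0.00212) and -0.29 (0.00290); the brightest lost its call without control replicate 1 (0.0869), control replicate 3 (0.0773) or any 1 of the starved arrays (0.0523 to 0.103). Canx, calnexin, its membrane-bound relative, read 11.83, 11.87 and 11.78 in control and 11.95, 11.80 and 11.79 in starved cells. Those values overlapped, with a change of 0.02 and an interval of -0.13 to 0.17.

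Among the 7 disulfide enzymes 4 fell and 1 rose, where 20.1% of all genes fell and 20.8% rose. Their median change was -0.24. Ero1a, the oxidase that recharges the isomerases, changed most. Its brightest probe set read 9.81, 9.80 and 9.47 in control and 9.08, 9.10 and 9.20 in starved cells. Control replicate 3 was the lowest control array, and no starved array reached it. The change was -0.57 ± 0.10, 1.48-fold lower (limma adjusted p = 0.00231).

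The other 2 probe sets of Ero1a fell further, with changes of -1.57 ± 0.21 (limma adjusted p = 0.000624) and -1.48 ± 0.18 (0.000358). The first read 9.29, 9.27 and 8.44 in control and 7.49, 7.41 and 7.38 in starved cells. Again control replicate 3 lay below the other controls, in this probe set by more. Averaged over its 3 probe sets the gene changed by -1.21 (0.000484), and without control replicate 3 the brightest gave -0.68 (0.00043). The list of 12 hypoxia-induced genes, added after the values were seen because Ero1a is a known target of the hypoxia factor HIF1, moved in the same arrays: of 11 measured, 10 fell and none rose, where 20.1% of all genes fell and 20.8% rose. Their average relative to each gene's mean was 0.56, 0.50 and 0.22 on the control arrays and -0.45, -0.40 and -0.42 on the starved arrays, with the same control array lowest; its part in the fall of Ero1a was not tested. The related oxidase Ero1b stood near the dim end, 5.71 against 5.61, and was not called, with a change of -0.10 and an interval of -0.26 to 0.06.

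The isomerases themselves went both ways. Pdia5 read 9.14, 9.09 and 9.08 in control and 9.51, 9.60 and 9.53 in starved cells. All starved arrays were higher, by 0.44 ± 0.05 or 1.36-fold (limma adjusted p = 0.000443). Pdia6, which also attenuates IRE1 signalling, fell by 0.28 ± 0.07 (limma adjusted p = 0.0108). Pdia4, a family member with an additional thioredoxin domain, also fell by 0.28 with an SE of 0.08 (limma adjusted p = 0.0244). Each of the 2 has a further probe set with a mean level under 5 that was not called and lay above 0, at 0.29 for Pdia6 and 0.21 for Pdia4, and averaging a gene's probe sets removed both calls, at 0.0023 (adjusted p = 0.982) for Pdia6 and -0.04 (0.731) for Pdia4. The call of Pdia4 was also lost without control replicate 2 (0.0812), control replicate 3 (0.0733) or starved replicate 2 (0.0797).

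P4hb, the classical protein disulfide isomerase and a subunit of collagen prolyl hydroxylase, read 12.74, 12.66 and 12.61 in control and 12.36, 12.43 and 12.51 in starved cells. The groups stood apart by 0.24 ± 0.06, 1.18-fold lower (limma adjusted p = 0.0199), and the call was lost without control replicate 1 (0.0680), starved replicate 1 (0.0664) or starved replicate 2 (0.0562). Pdia3, the isomerase that works with calnexin and calreticulin, was not called, at 0.08 with an interval of -0.05 to 0.21. Its 2 groups did not overlap, 12.36 to 12.46 against 12.48 to 12.54, yet the gap was smaller than the spread among the controls.

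The 9 ERAD genes showed no common direction: 3 fell, 1 rose and 5 were not called. Over all genes, 20.1% were called lower and 20.8% higher. The median change of the 9 was 0.02. Edem3, a member of the EDEM family that trims mannose from misfolded glycoproteins, read 9.23, 9.18 and 9.15 in control and 8.57, 8.62 and 8.49 in starved cells. Every starved array was lower by more than the whole range of either group, and the change was -0.63 ± 0.06, 1.54-fold (limma adjusted p = 0.000109). Its relatives Edem1 and Edem2 were not called, at 0.03 with an interval of -0.11 to 0.16 and at 0.10 with an interval of -0.04 to 0.24; the intervals of both lie above that of Edem3, -0.76 to -0.49. A dimmer probe set of Edem1 was called higher, by 0.22 ± 0.06 (0.0175).

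Sel1l, the adaptor that stabilises the ubiquitin ligase Syvn1 (HRD1), had probe sets that opposed each other. Its brightest one read 8.05, 7.95 and 7.93 in control and 8.41 on each of the 3 starved arrays. That is 0.43 ± 0.06 higher (limma adjusted p = 0.000621), and 2 more were called higher, at 0.32 (0.00564) and 0.36 (0.0111). The fourth was called lower, at -0.43 (0.00193), so the direction of Sel1l is not settled by these arrays; averaged over the 4 it stood at 0.17 (0.0265). It was the only one of the 34 genes with called probe sets in both directions. Syvn1 itself, the ligase of this complex, was not called, at -0.01 with an interval of -0.18 to 0.17.

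Herpud1, a scaffold of that ligase complex, read 9.88, 10.04 and 9.99 in control and 9.77, 9.75 and 9.77 in starved cells. The groups stood apart, by -0.21 ± 0.06 (limma adjusted p = 0.0262), but its second probe set, at -0.09, was not called (0.225), and the call was lost without control replicate 2 (0.0872), control replicate 3 (0.0642) or any 1 of the starved arrays (0.0588 to 0.0753). Derl1, a derlin, which helps move substrates out of the ER, fell by 0.28 ± 0.07 (limma adjusted p = 0.0112). Of its other 3 probe sets 1 was called, at -0.20 (0.0158), against -0.08 and -0.15 in the uncalled ones. The mean of the 4 gave -0.18 (0.0196), and without probe sets whose names mark possible cross-hybridisation the gene stood at -0.08 (0.307). Derl2 was not called at 0.02, although its dimmer probe set was higher by 0.35 ± 0.08 (0.00679) and the mean of the 2 by 0.19 (0.0208). Derl3 was not called at 0.06, with an interval of -0.17 to 0.28.

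**Figure D4:**
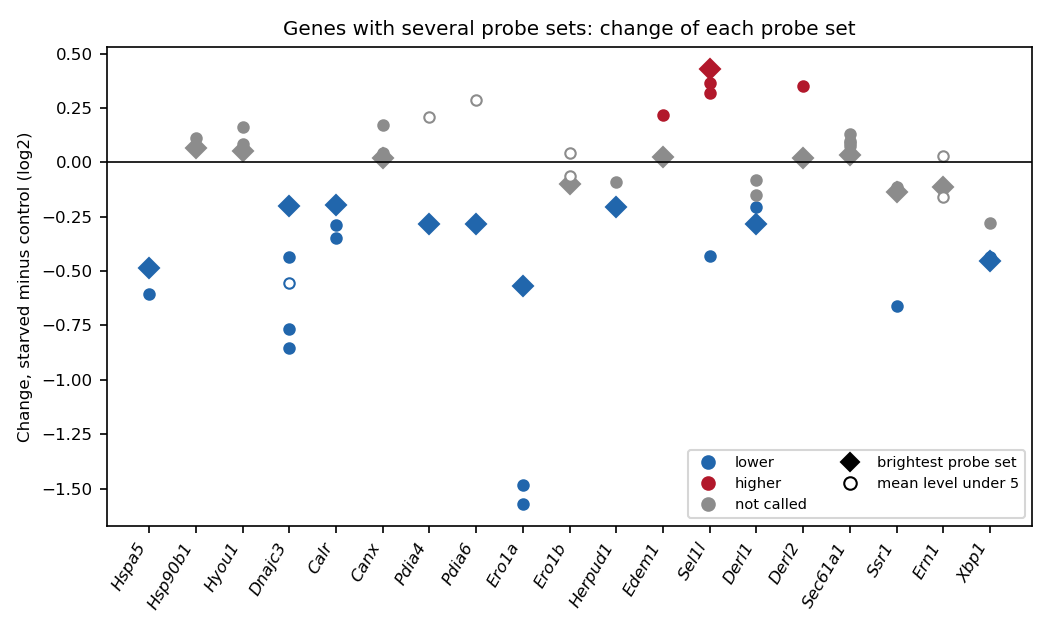
Change of every probe set (vertical axis, log2 of starved over control) for the 19 genes with several, the brightest as a diamond, open circles for a mean level under 5, colours for the call. Ero1a and Dnajc3 have dimmer probe sets that fell further than the brightest, Sel1l has called probe sets on both sides of 0, and the 6 of Sec61a1 lie close together and uncalled.

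Taking all 73 probe sets, 29 were called lower and 6 higher, where 19.2% of all probe sets were called lower and 20.3% higher. Among the 19 genes with several, 4 had every probe set called in the same direction (Hspa5, Dnajc3, Calr and Ero1a), 1 had called ones in opposite directions (Sel1l), 8 had some called and 6 had none. The 7 probe sets with a mean under 5 belong to Dnajc3, Ero1b, Ern1, Pdia4 and Pdia6.

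None of the 4 translocon genes passed the test, where 20.1% of all genes were called lower and 20.8% higher. Their median change was -0.02. Sec61a1, the pore subunit, read 11.69, 11.69 and 11.70 in control and 11.68, 11.72 and 11.78 in starved cells. It is the best covered of these genes, with 6 probe sets that gave 0.04 to 0.13, none of them called; the 95% interval of the brightest was -0.09 to 0.16. Sec61b, a small subunit of the pore, gave -0.08 with an interval of -0.20 to 0.04. The translocon-associated proteins Ssr1 and Ssr3, which assist the entry of some proteins, lay on opposite sides of 0 with groups that did not overlap. Ssr1 read 11.53, 11.50 and 11.51 against 11.39, 11.36 and 11.40, a change of -0.14 ± 0.05 (limma adjusted p = 0.0702). Ssr3 read 11.58, 11.57 and 11.60 against 11.78, 11.70 and 11.67, a change of 0.13 ± 0.06 (limma adjusted p = 0.0975). Both missed the threshold in the reported fit and passed it with trended and robust moderation, at 0.00552 and 0.00863, and without dim probe sets. Ssr1 also passed after a further quantile normalisation, after centring on array medians and with its probe sets averaged, at -0.30. The dimmest probe set of Ssr1 was called lower at -0.66 ± 0.08 (0.000325).

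Of the 3 sensors and transcription factors, Xbp1 and Atf6 fell and Ern1 was not called. Over all genes, 20.1% were called lower and 20.8% higher. Xbp1, whose mRNA is the substrate of IRE1, read 11.04, 10.91 and 10.96 in control and 10.54, 10.49 and 10.52 in starved cells. The starved arrays agreed closely and lay below every control array, a change of -0.45 ± 0.06 or 1.37-fold lower (limma adjusted p = 0.000556). Of its other 3 probe sets, 2 were called at -0.44 each and the third, at -0.28, was not (0.0554); the arrays do not separate spliced from unspliced Xbp1. Atf6, the membrane-bound factor cut in the Golgi, read 6.93, 6.83 and 7.08 in control and 6.72, 6.58 and 6.65 in starved cells. Its fall of 0.30 ± 0.08 (limma adjusted p = 0.0180) became -0.26 without starved replicate 2 and was then not called (0.0625). Ern1, the gene of IRE1, lay near the dim end at 5.15 and 5.04, with a change of -0.11 and an interval of -0.30 to 0.07.

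Other genes of the secretory pathway, 145 in 6 lists, were set beside these; 116 were measured, of which 36 fell (31.0%) and 21 rose (18.1%), with a median change of -0.03. The shares over all genes were 20.1% and 20.8%, and the counts of the single lists are read against these. Of the 116 genes 3 had a mean level under 5, against 3611 of all 12393, and the shares were not matched for level. No difference between lists was tested. In N-glycosylation 11 of 28 genes measured fell (39.3%) and 3 rose (10.7%), with a median of -0.08. Alg2, a mannosyltransferase of the lipid-linked sugar, went from 7.88 to 7.30 (-0.58 ± 0.07, limma adjusted p = 0.000487), or -0.18 over all its probe sets (0.0357). Mogs, the glucosidase that starts glycan trimming, went from 8.57 to 8.04 (-0.53 ± 0.07, 0.000455), and Magt1, an oxidoreductase subunit of the oligosaccharyltransferase, from 9.50 to 8.98 (-0.52 ± 0.06, 0.000250).

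Of 25 further ERAD genes 3 were lower (12%) and 7 higher (28%), with a median of 0.10. Dnajb12, a membrane-bound J-domain protein, rose from 7.15 to 7.84 (0.69 ± 0.09, limma adjusted p = 0.000641), or by 0.31 over all its probe sets (0.00393). The ubiquitin ligase Rnf185 fell from 8.33 to 7.74 (-0.59 ± 0.06, 0.000234) and Erlin1, which takes part in the degradation of inositol trisphosphate receptors, from 8.58 to 8.01 (-0.57 ± 0.05, 7.98e-05), or -0.25 over all its probe sets (0.0158). Among further translocon and signal peptide genes 7 of 18 fell (38.9%) and 4 rose (22.2%), with a median of -0.06. Within the signal recognition particle the subunits Srp14 and Srp68 moved oppositely, from 11.05 to 10.47 (-0.58 ± 0.06, limma adjusted p = 0.000173) and from 10.31 to 10.83 (0.52 ± 0.05, 0.000156), and Ostc, a subunit of the oligosaccharyltransferase, went from 11.34 to 10.80 (-0.54 ± 0.06, 0.000249).

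Further folding factors counted 6 lower (35.3%) and 3 higher (17.6%) of 17, with a median of -0.00. A list of further isomerase-family genes and other ER enzymes counted 4 lower (33.3%) and 1 higher (8.33%) of 12, with a median of -0.15. Its 4 lower genes were Vkorc1, Txndc11, Prdx4 and Sumf1, not all of them isomerases. Cnpy2, an ER-resident saposin-like protein, went from 12.41 to 12.04 (-0.37 ± 0.06, limma adjusted p = 0.00162), with -0.60 over all its probe sets (4.51e-05). Creld1, the relative of Creld2, went from 8.08 to 7.75 (-0.33 ± 0.06, limma adjusted p = 0.00399) and Dnajc1, a membrane J-domain protein, from 8.14 to 8.42 (0.28 ± 0.06, 0.00533). Vkorc1, the vitamin K epoxide reductase, went from 11.16 to 10.88 (-0.29 ± 0.05, 0.00399). The thioredoxin-domain genes Txndc11 and Tmx2 changed by -0.28 ± 0.07 (0.0150) and 0.26 ± 0.07 (0.0177); Txndc11 lost its call without starved replicate 2 (0.0525), and Tmx2 without control replicate 1 (0.0566), control replicate 2 (0.0510) or starved replicate 3 (0.0556).

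Signalling genes of the response outside the 36 counted 5 lower (31.2%) and 3 higher (18.8%) of 16, with a median of -0.09, where 20.1% and 20.8% of all genes were called. Ddit3 (CHOP), a transcription factor of the PERK branch and of other stresses, rose most, from 10.55 ± 0.02 to 11.47 ± 0.07 (0.92 ± 0.06, limma adjusted p = 1.70e-05). It moved opposite to Hspa5, Xbp1 and Sdf2l1 in the same arrays. Atf4, the factor upstream of Ddit3 in that branch, was not called at the level of its mRNA, 11.48 against 11.44 (-0.05 ± 0.06, 0.576). Eif2ak3, the gene of PERK, was not called either, at -0.21 ± 0.08 (0.0674), or -0.06 over all its probe sets. Traf2, an adaptor bound by IRE1, rose from 8.02 to 8.69 (0.67 ± 0.06, 0.000120), and Ppp1r15b, a subunit of the phosphatase that restores translation after eIF2 phosphorylation, fell from 9.55 to 8.97 (-0.58 ± 0.07, 0.000466), or -0.33 over all its probe sets (0.00222).

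**Figure D5:**
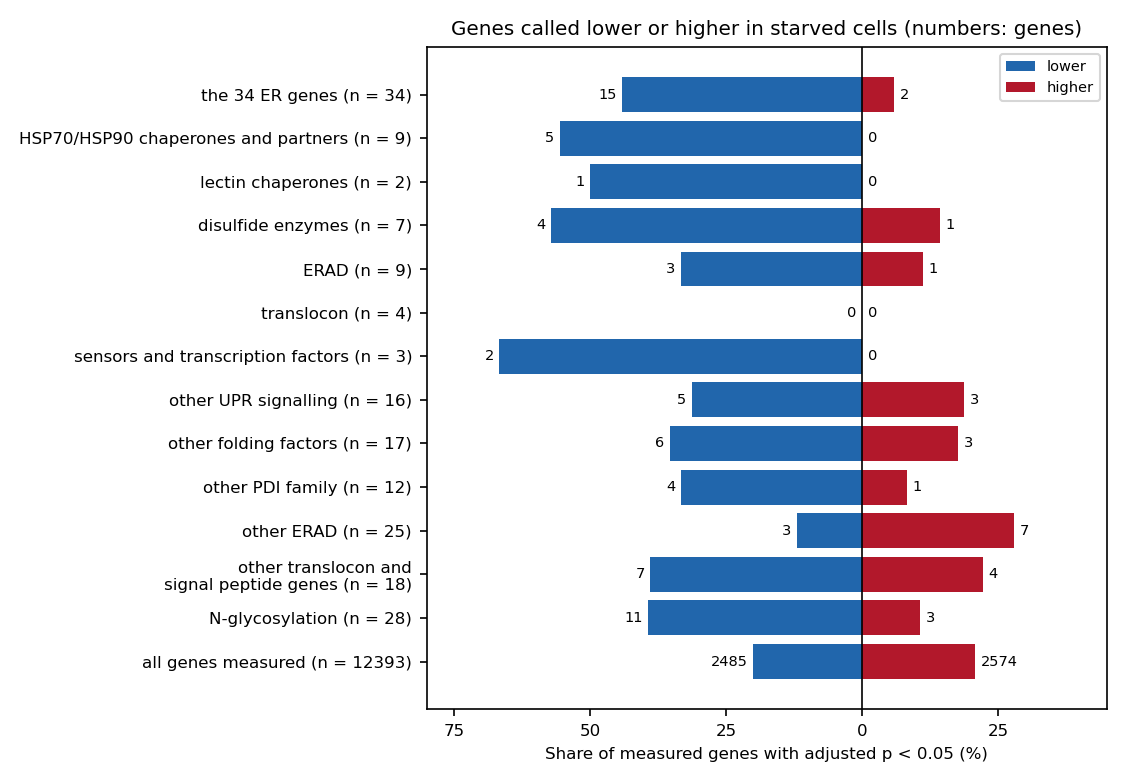
Share of measured genes called lower (blue, to the left) and higher (red, to the right) in starved cells, in percent on the horizontal axis, for the 34 genes, their roles, the 6 further lists and all genes; numbers at the bar ends are genes. The 34 genes have 15 lower and 2 higher, the further ERAD list has 3 lower and 7 higher, and all genes measured divide almost evenly, 2485 lower and 2574 higher. The list labelled other PDI family also holds other ER enzymes, among them Vkorc1.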

How the data were processed

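RNA of 3 starved and 3 control samples was labelled as biotinylated cRNA and hybridised to Affymetrix mouse arrays. The deposited values are log2 signals. Per the submitters' processing notes the authors made them with affy and RMA, whose versions are not stated there. Because RMA brings the arrays to a common distribution of probe intensities, a change in total RNA per cell is not visible. Of 22690 probe sets, 64 control sets were set aside and 22626 tested with limma 3.58.1 (lmFit and eBayes, R 4.3.3) across all 6 arrays, with Benjamini-Hochberg adjustment. By the annotation of the platform, 20380 of these name 1 gene, 691 name several and were given to no gene, and 1555 name none. The scripts were tested on simulated data.

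The member genes, the lists and the tests were chosen with earlier results of these data known. Every member was described; from each further list the rule named up to 3 called genes with the largest change and separate groups, and always Atf4, Ddit3 and Eif2ak3. Promoters are RefSeq windows of 300 bases (GRCm38.p6), searched on both strands with Python 3.11.15; Derl1, Atf6, Sec61a1, Hspa13, Manf and Hyou1 had none here. Figures were drawn with matplotlib 3.10.9. Samples were grouped by title. Same-numbered samples did not deviate together (correlations of -0.09, 0.01 and -0.01), so the fit used no block. Alternatives changed the filter on dim probe sets, the normalisation, the moderation, the choice of probe set, the thresholds and the arrays included. The number of arrays limits the precision. No scan batch was given in the sources used here. Between the 3' and 5' control sets of Gapdh the difference was -0.00, -0.11 and -0.04 on the control arrays and -0.12, -0.15 and -0.11 on the starved arrays; for Actb it was 0.08, 0.03 and 0.05 against 0.08, 0.04 and 0.03.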

Additional observations from a re-analysis of the deposited data

How the results depend on the processing

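Of the 17 called members, 9 kept their call and direction wherever the probe set choice, normalisation, filter, moderation, stricter adjusted p, block or arrays were changed one at a time: Hspa5, Sdf2l1, Creld2, Manf, Ero1a, Edem3 and Xbp1 (lower) and Pdia5 and Sel1l (higher). For Sel1l this covers only its brightest probe set and the mean of its 4, at 0.43 and 0.17. A single probe set of Sel1l went the other way. The required change of at least 0.5 was not among these settings. It was not met by Hspa5 (-0.48), Xbp1 (-0.45), Pdia5 (0.44) and Sel1l (0.43). The 15 lower members numbered 14 to 17 under the other filters, normalisations, moderation and probe set rules, 7 at an adjusted p of 0.01, 5 with a change of at least 0.5 and 9 to 13 when 1 array was left out. The 2 higher members numbered 0 with a change of at least 0.5 and 2 or 3 under those other settings. With the replicate number as a block, although the pairing check gave no sign that the numbers pair the samples, 12 were lower and 2 higher; Dnajc3 (0.0774), P4hb (0.0550) and Herpud1 (0.0575) lost their calls. The median change of -0.13 became -0.142 after a further quantile normalisation, -0.144 after centring on array medians, -0.0806 with all probe sets of a gene averaged, and -0.148 to -0.114 without 1 array. With averaging, Pdia6 turned to 0.0023, as its dim second probe set lay above 0. Dnajb9, Derl2, Ssr1 and Ssr3 gained a call under at least 1 alternative. The other pathway genes were put through the same alternatives as an addition made after the values were seen. Their 36 lower and 21 higher became 22 and 11 at an adjusted p of 0.01, 9 and 4 with a change of at least 0.5, 30 and 16 with the block, and 26 to 32 and 13 to 20 without 1 array; Eif2ak3 passed under 4 alternatives, for example without starved replicate 1 (0.0206). Where not stated, the cause was not tested. Probe sets near the dim end (Ern1, Ero1b, Derl3) limit what a lack of a call says.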
